A study of Gallus gallus with 6 samples.

Results

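Collagen IV is the network-forming collagen of basement membranes, the thin sheets of matrix that coat every muscle fibre and capillary. In vertebrates it is made from 6 alpha chains, encoded by COL4A1 to COL4A6, and all 6 genes are present among the 20943 genes of the deposited expression table, each as 1 row matched by its name. The data are 6 poly(A)-selected RNA libraries made from the pectoral muscle of broilers, all female and 35 days old. In 3 of them, the controls, the birds ate a basal diet to which 0 IU/kg of vitamin E was added, and in the other 3 the same diet carried 100 IU/kg as DL-α-tocopheryl acetate. The labels name the tissue samples but do not say whether each came from a different bird, so all errors measure the spread between these samples, and bulk tissue cannot tell fewer cells of a type from less RNA per cell.

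The family was chosen with the vitamin E comparison already in view, since an earlier analysis of these libraries had already named COL4A5 and COL4A6 for their differences. The differences between diets are therefore given here as a description, and nothing is concluded from the p of a chain. Counts of chains past a threshold are printed only beside the share of all genes past it.

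Chains of collagen IV fold in threes into a triple helix inside the endoplasmic reticulum, and the trimers then join end to end into a sheet. In mammals, trimers of COL4A1 and COL4A2 chains occur in nearly all basement membranes, whereas chains of COL4A3, COL4A4 and COL4A5 form the network of the kidney glomerulus, and chains of COL4A5 and COL4A6 form a further one in skin and around smooth muscle. The 6 genes sit in 3 divergent pairs, and in humans mutations of COL4A1 or COL4A2 damage small vessels, while mutations of COL4A3, COL4A4 or COL4A5 cause the kidney disease Alport syndrome.

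The same arrangement is seen in the positions of the deposited table, for which the sources used here name no genome build. COL4A1 lies on the minus strand of chromosome 1 (138792101 to 138903918) and COL4A2 starts 78 bases further on, on the plus strand (138903996 to 139053714). On chromosome 4 COL4A5 (minus strand, 13953224 to 14032658) and COL4A6 (plus strand, 14033235 to 14154042) start 577 bases apart. COL4A4 (minus strand, 9308395 to 9373040) and COL4A3 (plus strand, 9372449 to 9433117) lie on chromosome 9 and overlap by 592 bases at their starts. The sources used here do not say how strand was treated, so reads from that overlap cannot be told apart.

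Expression was deposited as FPKM, that is, fragments divided by gene length and by library size, so levels of different genes can be set side by side. The steps in these values gave the whole reads behind them, and library totals ran from 14161399 to 25477341 reads, each vitamin E total below each control total. Control replicate 1, the deepest library, stood apart on a first principal component with 38.4% of the variance, at -34.4. Control replicates 2 and 3 were at 5.87 and -14.2, and vitamin E replicates 1 to 3 at 16.5, 17.4 and 8.75. Each vitamin E library thus lay above each control on this component. Muscle fibre markers summed to between 60508 and 71433 FPKM in controls and to between 53266 and 62890 FPKM with vitamin E, with overlap and with parvalbumin (PVALB) under 1 FPKM on average. ACTA1 alone averaged 32968 and 29617 FPKM of these sums. Of 11 tested fibre markers 1, the myosin gene MYH1A, was lower at an unadjusted p under 0.05 (limma). MYH1A averaged 418 ± 471 FPKM in controls, with a highest value of 962 FPKM, and 81.7 ± 3.10 FPKM with vitamin E (SD, n = 3). Without overlap 3 (MYH1A, MB and TNNC2) were lower, and the median log2 difference was -0.17. The difference was above 0 in 4 of the 11, among them MYH1F at 0.70 ± 0.32 (SE) with overlap. Of all tested genes 9.11% passed that p and 14.6% were without overlap, in either direction.

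COL4A1 and COL4A2 supplied nearly all collagen IV transcripts of this muscle. COL4A1 was measured at 154, 127 and 174 FPKM in control replicates 1 to 3, and at 168, 198 and 157 FPKM in vitamin E replicates 1 to 3. The groups overlapped, with the lowest value in control replicate 2 and the highest in vitamin E replicate 2. COL4A2 was at 89.7, 77.3 and 106 FPKM in controls and at 107, 119 and 93.9 FPKM with vitamin E, and the same libraries were lowest and highest. Together these genes held between 95.2% and 97.6% of the summed FPKM of the 6 chains, and they ranked 310 and 486 of the 20943 genes by mean FPKM.

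COL4A5 and COL4A6 were present at a few FPKM and stood higher in every vitamin E library than in any control. COL4A5, whose chain can join either of the minor networks, was at 2.91, 2.80 and 3.03 FPKM in controls and at 5.00, 6.41 and 5.86 FPKM with vitamin E. COL4A6, whose chain pairs with that of COL4A5, was at 3.38, 3.67 and 3.67 FPKM in controls and at 5.99, 6.84 and 6.37 FPKM with vitamin E. In both genes the controls lay close together and the gap between the groups was wider than the range within either. These values rested on 375 to 741 reads of COL4A5 and 446 to 759 reads of COL4A6 per library.

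COL4A3 and COL4A4, the chains of the glomerular network, were close to the limit of this depth. COL4A3 ranged from 0.0860 to 0.197 FPKM over the 6 libraries on 10 to 30 reads each, and COL4A4 from 0.0827 to 0.204 FPKM on 8 to 31 reads. Groups overlapped in both genes, and over all libraries together each came to 0.146 FPKM, with an exact 95% Poisson interval of 0.122 to 0.174 for COL4A3 and of 0.118 to 0.180 for COL4A4 that covers counting error only. Neither gene reached the mean of 1 FPKM required for testing, so neither entered the main test between diets. Their few reads limit what can be said of the diets in them.

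**Figure D1:**
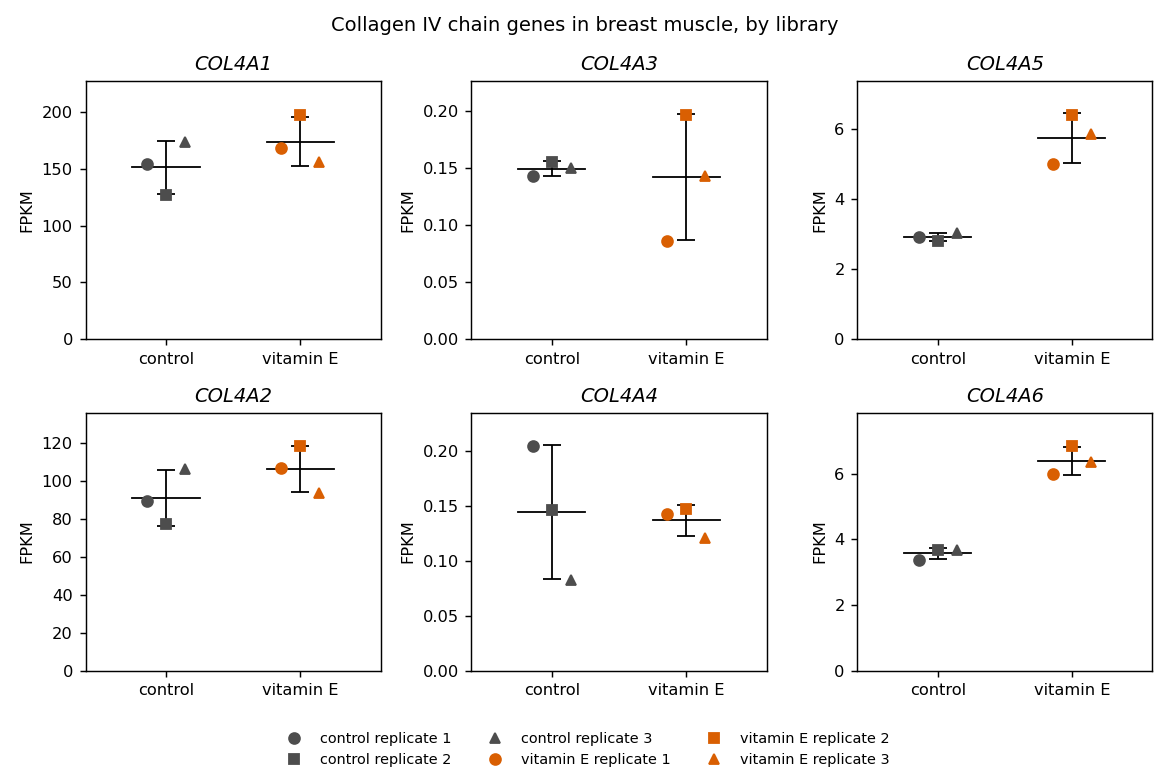
FPKM of each collagen IV gene (vertical axes from 0, each with its own scale) in the 3 control and 3 vitamin E libraries. Points are libraries, horizontal lines are group means and bars are SD (n = 3). COL4A5 and COL4A6 lie between 2.80 and 3.67 FPKM in controls and between 5.00 and 6.84 FPKM with vitamin E, and the groups of the other 4 genes overlap.

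The levels therefore fell in a fixed order for the upper 4 genes. COL4A1 exceeded COL4A2 in each library and COL4A6 exceeded COL4A5 in each library, with COL4A2 at least 14.7 times COL4A6. COL4A3 and COL4A4 had no order between them, as their ratio ran from 0.605 to 1.81 over the libraries.

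With vitamin E, the mean of COL4A5 was 1.98 times that of controls, from 2.91 ± 0.115 to 5.76 ± 0.714 FPKM (SD, n = 3), and the log2 difference was 0.78 ± 0.12 (SE, limma fit on log2(FPKM + 1) over all genes). The mean of COL4A6 was 1.79 times that of controls, from 3.57 ± 0.168 to 6.40 ± 0.427 FPKM, and the log2 difference was 0.69 ± 0.11. The scale of log2(FPKM + 1) understates the change of genes at such levels. Among 11320 tested genes these differences ranked 161 and 238 from the top, and 2.10% of genes had one at least as large as that of COL4A6.

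The major chains differed by far less. Means of COL4A1 were 152 ± 23.6 FPKM for the controls and 174 ± 21.3 FPKM for the vitamin E libraries (SD, n = 3; log2 difference 0.21 ± 0.16, SE), and COL4A2 averaged 91.2 ± 14.6 and 107 ± 12.4 FPKM (log2 difference 0.23 ± 0.16). Both differences were smaller than the range within either group. Without control replicate 1, the library that stood apart, the log2 differences were 0.78 for COL4A5, 0.66 for COL4A6, 0.22 for COL4A1 and 0.22 for COL4A2. The major chains depended more on other libraries. COL4A1 was at 0.083 and COL4A2 at 0.12 without control replicate 2, at 0.11 and 0.15 without vitamin E replicate 2, and at 0.31 and 0.34 without control replicate 3. The median log2 difference of the 4 tested chains was 0.46, beside 0.019 for all tested genes.

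Of the 4 tested chains, 0 passed at an adjusted p of 0.05 (limma, Benjamini-Hochberg over all genes), as did 0.0% of all genes. At an unadjusted p under 0.05 there were 2 chains, COL4A5 and COL4A6, beside 9.11% of all genes in either direction and 5.97% in the higher direction. The groups did not overlap in the same 2 chains, beside 14.6% of all genes in either direction and 8.86% in the higher direction. Since this comparison led to the choice of the family, these counts carry no evidence about it.

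**Figure D2:**
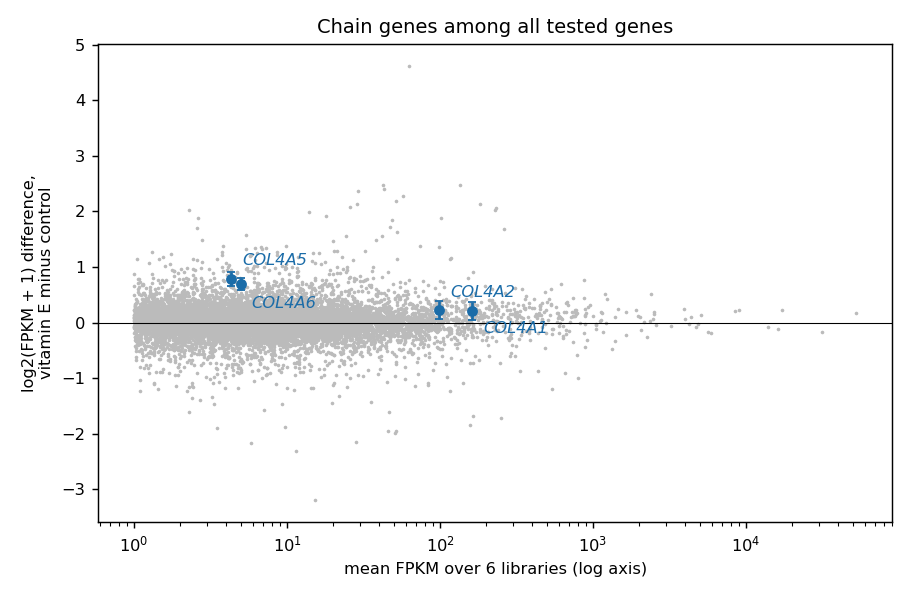
Difference between vitamin E and control libraries on the log2(FPKM + 1) scale (vertical axis) against mean FPKM over the 6 libraries (horizontal log axis). Grey points are all 11320 tested genes, and blue points with SE bars are the 4 tested chains, with COL4A5 at 0.78 and COL4A6 at 0.69 above COL4A1 at 0.21 and COL4A2 at 0.23.

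Within groups, the SD as a share of the mean was 15.6% in controls and 12.2% with vitamin E for COL4A1, and 16.0% and 11.6% for COL4A2. For COL4A5 it was 3.93% and 12.4%, and for COL4A6 4.69% and 6.68%. COL4A5 and COL4A6 were thus closer together among the controls than COL4A1 and COL4A2 were, while COL4A1 and COL4A5 had about the same spread with vitamin E. In control reads the chi-square per degree of freedom, near 1 for counting error alone, was 0.59 for COL4A5 and 1.29 for COL4A6. The spread of these 2 genes among controls was thus about that of counting error. With vitamin E the chi-square per degree of freedom was higher, at 9.94 for COL4A5 and 3.10 for COL4A6. With 3 libraries a group, these spreads were not compared by a test.

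Because a ratio within a library is free of library scaling, the balance between chains was followed library by library. The ratio of COL4A1 to COL4A2 FPKM was 1.72, 1.64 and 1.63 in controls and 1.57, 1.67 and 1.67 with vitamin E. Its highest value was 1.09 times its lowest, although each gene alone varied by at least 1.53 times between libraries. The diets differed by -0.024 ± 0.038 in the log2 of this ratio (SE). The ratios come from the comparison in view when the family was chosen, so no p is given for them, and an exact permutation test of 3 against 3 libraries could not give one below 0.1.

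For COL4A5 to COL4A6 the ratio was 0.862, 0.763 and 0.825 in controls and 0.835, 0.938 and 0.921 with vitamin E. The groups overlapped through vitamin E replicate 1, and the log2 ratio differed by 0.14 ± 0.073 (SE). Between the pairs the balance differed by diet. COL4A1 stood at 52.9, 45.3 and 57.4 times COL4A5 in controls, but at 33.6, 30.9 and 26.7 times with vitamin E, without overlap.

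The second comparison across pairs, COL4A2 to COL4A6, gave 26.6, 21.1 and 29.0 in controls and 17.9, 17.3 and 14.7 with vitamin E, again without overlap. The log2 differences of these ratios were -0.77 ± 0.14 and -0.61 ± 0.16 (SE). They follow from the higher COL4A5 and COL4A6 values through which the family was chosen and are not separate evidence. Of the summed FPKM of the 6 chains, COL4A5 and COL4A6 held 2.51%, 3.07% and 2.33% in controls and 3.83%, 4.01% and 4.65% with vitamin E. The means were 2.64% ± 0.383 and 4.17% ± 0.429 (SD, n = 3).

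**Figure D3:**
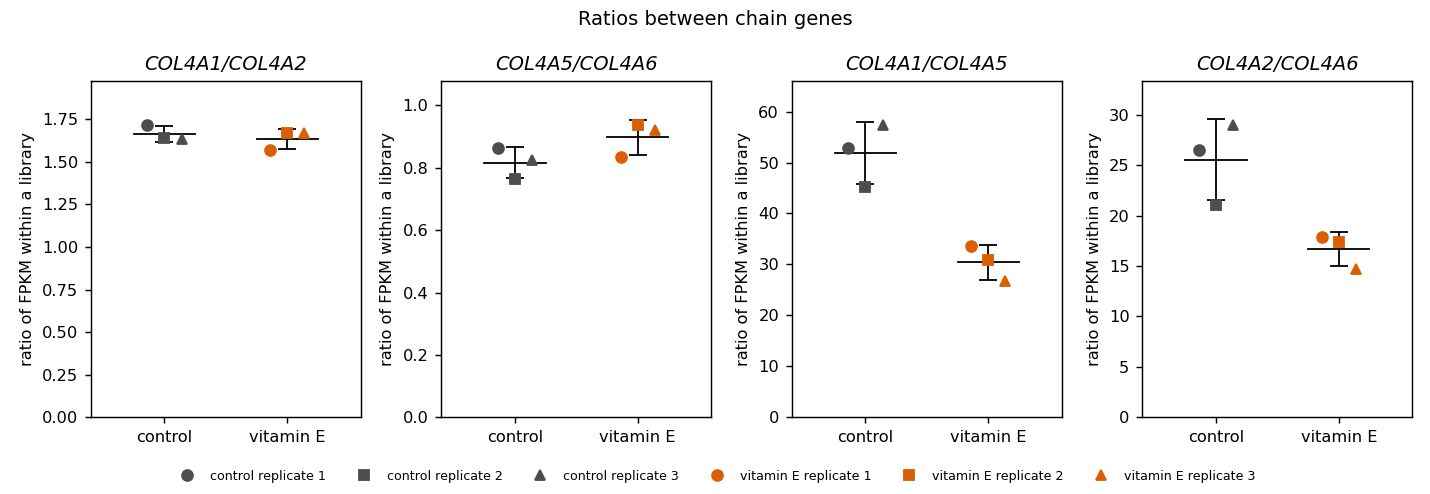
Ratio of FPKM of 2 chain genes within a library (vertical axes from 0), by diet. Points are libraries, lines are group means and bars are SD (n = 3). The ratios within the divergent pairs, 1.57 to 1.72 and 0.763 to 0.938, overlap between diets, and the ratios across pairs are lower with vitamin E.

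The partner in the divergent pair had the most similar pattern of all tested genes for COL4A1, COL4A2 and COL4A5, and the second most similar for COL4A6. Likeness was measured as the root mean square difference between the log2(FPKM + 1) profiles of 2 genes over the 6 libraries, each set to its own mean, and it is given with no p. COL4A2 was the nearest of 11319 genes to COL4A1 and COL4A1 the nearest to COL4A2, at 0.039 log2 units, where the median gene lay 0.26 from COL4A1. Next to COL4A1 came C8H1orf226 at 0.059 and PRDM10 at 0.061, and next to COL4A2 came PRDM10 at 0.063 and SNX25 at 0.064.

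COL4A6 was likewise the nearest gene to COL4A5, at 0.074, and COL4A5 came second from COL4A6, after an unnamed locus. METTL6 and the adiponectin receptor gene ADIPOR2 followed for COL4A5, at 0.11 and 0.12, and ADIPOR2 and the membrane protein gene EMP2 for COL4A6, at 0.081 and 0.087. Chains of different pairs lay further from each other than partners did. COL4A5 lay 0.32 from COL4A1, which placed it at rank 7949 from that gene, while COL4A1 held rank 1140 from COL4A5. The median gene lay 0.26 from COL4A1 and 0.43 from COL4A5.

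The vitamin E difference is part of those profiles, so the order was also taken on deviations from the group means. COL4A2 was then at rank 4 from COL4A1 and COL4A1 at rank 2 from COL4A2, at 0.038, behind ELP3, a subunit of the Elongator complex, at 0.033. The next symbols from COL4A1 were BACE2 at 0.038, a little nearer than COL4A2, and ELP3 at 0.043, and PRDM10 was at 0.045 from COL4A2. COL4A6 was at rank 189 from COL4A5 and COL4A5 at rank 365 from COL4A6, at 0.059. Both vary little within groups, and the genes nearest to them, EIF3D, PPARA and CSTF1 for COL4A5 and METAP2, DENND5B and UBN2 for COL4A6, lay between 0.0087 and 0.018 away. Across pairs, COL4A5 and COL4A1 were 0.14 apart on these deviations. COL4A5 was at rank 1038 from COL4A1, where the median gene lay at 0.23. COL4A1 was at rank 3297 from COL4A5, where the median gene lay at 0.18.

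As a setting for these values, 1048 divergent pairs of tested genes that start within 1000 bases of each other were taken from the table. Their median root mean square difference was 0.22, with a lower quartile of 0.16. The COL4A1/COL4A2 pair, at 0.039, had 2 pairs below it (0.191%), and the COL4A5/COL4A6 pair, at 0.074, had 19 (1.81%). The vitamin E difference through which COL4A5 and COL4A6 were named enters these distances, so the place of that pair is partly set by the choice. On deviations from the group means the median over pairs was 0.19, the COL4A1/COL4A2 pair, at 0.038, had 4 pairs below it (0.382%), and the COL4A5/COL4A6 pair, at 0.059, had 21 (2.00%). Genes that each vary little within groups are near each other on that measure whatever their pattern. In 4 of the 1048 pairs both genes were higher with vitamin E by more than 0.5 on the log2 scale, a count to which COL4A5/COL4A6 belongs by the same choice.

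**Figure D4:**
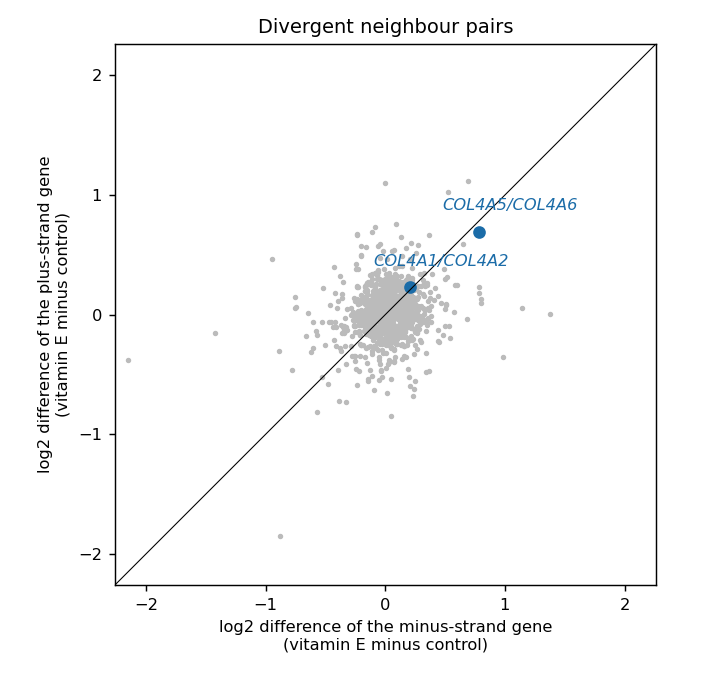
Log2 difference between vitamin E and control of the minus-strand gene (horizontal) and the plus-strand gene (vertical) for 1048 divergent pairs of tested genes. Blue points are the chain pairs, which lie near the line of equal difference at 0.21 and 0.23 (COL4A1/COL4A2) and at 0.78 and 0.69 (COL4A5/COL4A6).

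Genes around the COL4A5/COL4A6 locus were examined as well, a comparison added after the data were seen. IRS4, an insulin receptor substrate gene 3302 bases beyond the end of COL4A5, had a control mean of 7.02 ± 1.35 FPKM and a vitamin E mean of 10.03 ± 0.893 FPKM (SD, n = 3). Its groups did not overlap, as was so for 8.86% of all tested genes in the higher direction. IRS4 did not pass over all genes (limma, log2 difference 0.47 ± 0.15, SE; adjusted p = 0.441). NXT2, a gene of RNA export 83712 bases from COL4A5, was also without overlap at 0.24 ± 0.11. ACSL4, a gene of fatty acid activation 103614 bases from COL4A5, overlapped at 0.44 ± 0.23. On the other side ATG4A lies 86 bases beyond the end of COL4A6 and encodes an autophagy protease. It overlapped between diets at 0.086 ± 0.10. So did the proteasome chaperone gene PSMD10 (12361 bases off) at 0.27 ± 0.16 and the vesicle traffic gene RAB39B (92937 bases off) at 0.021 ± 0.11.

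Around COL4A1/COL4A2 the 3 nearest tested genes on each side all overlapped between diets. They lay 4539 to 116826 bases off on the COL4A2 side, but 822439 to 1037165 bases off on the COL4A1 side, so those are not close neighbours. RAB20, a small GTPase gene 4539 bases beyond COL4A2, differed by -0.080 ± 0.16 (SE). The others ranged from MCF2L at 0.68 ± 0.33 to ATP11A at -0.20 ± 0.14, both on the distant COL4A1 side.

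Transcripts of proteins that build on the collagen IV network showed small differences. Of 19 listed partners 14 were tested, and 0 passed over all genes. There were 3 higher and 0 lower at an unadjusted p under 0.05 (limma), with a median log2 difference of 0.14. Of all tested genes 5.97% were higher at that p, 9.11% passed it in either direction, and 8.86% were higher without overlap. Lists here and below were written with earlier results of these data known, and their counts are given as a description. LAMA2, the laminin chain typical of the muscle fibre sheath, was at 14.4, 14.1 and 12.6 FPKM in controls and at 19.7, 17.9 and 16.5 FPKM with vitamin E (limma, log2 difference 0.37 ± 0.12, SE, adjusted p = 0.420). NID1, the nidogen that links laminin to collagen IV, averaged 91.7 ± 2.10 and 114 ± 4.66 FPKM (SD, n = 3; log2 difference 0.31 ± 0.10; adjusted p = 0.446), and neither gene had overlapping groups. SPARC, a secreted collagen-binding protein, averaged 1059 ± 175 and 1425 ± 237 FPKM with overlap, and COL15A1, a collagen that bridges basement membrane and fibrils, differed by 0.37 ± 0.24.

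The other network partners, such as perlecan (HSPG2, 0.067 ± 0.19), the capillary laminin chain LAMA4 (0.21 ± 0.15) and the common laminin chain LAMC1 (-0.036 ± 0.10), overlapped between diets. LAMA1, LAMB3, LAMB4 and LAMC3 averaged under 1 FPKM.

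Of the genes that fold, modify, cross-link and export collagen, 25 were tested. At an adjusted p of 0.05 there were 0, at an unadjusted p under 0.05 (limma) 3 higher and 0 lower, and the median was 0.053. Of all tested genes 5.97% were higher at that unadjusted p and 8.86% were higher without overlap. FKBP10, a collagen chaperone of the endoplasmic reticulum, was at 8.40, 10.15 and 9.62 FPKM in controls and at 17.7, 13.3 and 12.7 FPKM with vitamin E (log2 difference 0.57 ± 0.15, SE; limma, adjusted p = 0.360). The prolyl hydroxylase subunit gene P4HA3 differed by 0.57 ± 0.16 and the prolyl isomerase gene PPIB by 0.35 ± 0.13, all 3 without overlap. P4HA1, which encodes the main hydroxylase subunit, was lower without overlap, at 15.03 ± 1.13 and 12.5 ± 0.490 FPKM (log2 difference -0.25 ± 0.11). SEC24D was also higher without overlap at 0.25 ± 0.13, and SEC23A also lower at -0.21 ± 0.11. That made 4 higher and 2 lower without overlap, beside 14.6% of all tested genes in either direction.

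PXDN encodes peroxidasin, the enzyme that cross-links the end domains of collagen IV trimers, and it overlapped between diets at 17.7 ± 1.61 and 19.2 ± 1.26 FPKM (SD, n = 3; log2 difference 0.11 ± 0.12, SE). SERPINH1, the collagen chaperone HSP47, overlapped as well, at 89.6 ± 10.3 and 104 ± 10.9 FPKM.

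Among receptors 0 of 10 tested genes passed over all genes or at an unadjusted p under 0.05 (limma). Of all tested genes 9.11% passed that unadjusted p in either direction. ITGB1, the shared subunit of the collagen-binding and laminin-binding integrins, averaged 145 ± 35.4 and 136 ± 10.3 FPKM (SD, n = 3), and its partner for collagen IV, ITGA1, averaged 4.59 ± 0.922 and 5.51 ± 0.821 FPKM. ITGA11, a partner for fibrillar collagen, differed by 0.78 ± 0.36 (SE), the laminin receptor subunit gene ITGA6 by -0.30 ± 0.21 and the dystroglycan gene DAG1 by -0.10 ± 0.11, all with overlap. The median of the list was -0.053.

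Proteases and their inhibitors had 0 of 13 tested genes past the test over all genes. There were 1 higher and 0 lower at an unadjusted p under 0.05 (limma), with a median of -0.052. Of all tested genes 5.97% were higher at that p and 9.11% passed it in either direction. The higher gene was MMP2, a gelatinase that also cuts collagen IV, at 117, 117 and 96.1 FPKM in controls and 190, 143 and 128 FPKM with vitamin E (log2 difference 0.47 ± 0.17, SE; adjusted p = 0.492). The other gelatinase gene, MMP9, averaged 2.02 ± 2.08 and 0.460 ± 0.101 FPKM, MMP15 differed by -0.25 ± 0.13 and the lysosomal protease gene CTSB by -0.32 ± 0.16, all with overlap.

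TGF-beta is a known inducer of collagen genes, and 0 of 13 genes of its pathway passed over all genes. At an unadjusted p under 0.05 (limma) there were 1 higher, the co-receptor gene TGFBR3 (0.49 ± 0.16, SE; adjusted p = 0.441), and 1 lower, the TGF-beta target gene CTGF (-0.63 ± 0.23; adjusted p = 0.479). SMAD2, a signal transducer, differed by -0.29 ± 0.14 without overlap and LTBP1, which stores latent TGF-beta, by 0.42 ± 0.20 with overlap. The list had a median of -0.18. Of all tested genes 9.11% passed that unadjusted p and 14.6% were without overlap, in either direction.

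Collagen IV chains are made by several cell types of muscle, so markers of these were measured beside them. Fibroblast markers stood higher with vitamin E, as COL4A5 and COL4A6 did: the 9 genes summed to between 1579 and 1871 FPKM in controls and to between 2321 and 3313 FPKM with vitamin E. COL3A1 alone averaged 635 and 1111 FPKM of these sums, and DCN 393 and 570 FPKM. Over all genes 0 of the 9 passed, and 8 were higher at an unadjusted p under 0.05 (limma), beside 5.97% of all tested genes. The list was written with earlier results of these data known, so this count is a description and not evidence. In vitamin E replicates 1 to 3 fibroblast markers stood 0.62, 0.29 and 0.18 above their mean on the log2 scale. COL4A5 stood 0.22, 0.53 and 0.42 above its mean there, and COL4A6 0.27, 0.43 and 0.34. In control replicates 1 to 3 fibroblast markers stood at -0.50, -0.084 and -0.50. COL4A5 was at -0.39, -0.43 and -0.35 in those controls, and COL4A6 at -0.41, -0.32 and -0.31. The part of fibroblasts in the COL4A5 and COL4A6 values was not tested.

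Blood endothelial markers summed to between 194 and 263 FPKM in controls and to between 225 and 285 FPKM with vitamin E, with overlap. PECAM1 alone averaged 83.0 and 107 FPKM of these sums. At an unadjusted p under 0.05 (limma) 1 of 14 was higher, beside 5.97% of all tested genes, and the median log2 difference was 0.089. Without overlap 3 (ESAM, EGFL7 and CLDN5) were higher and 0 lower, beside 8.86% of all tested genes in the higher direction. Relative to their mean on the log2 scale the endothelial markers stood at -0.14, 0.14 and -0.14 in control replicates 1 to 3. In vitamin E replicates 1 to 3 they stood at 0.062, 0.15 and -0.066. In the same order COL4A1 stood at -0.067, -0.35 and 0.11 in controls and at 0.058, 0.29 and -0.043 with vitamin E. COL4A2 stood at -0.12, -0.34 and 0.12 in controls and at 0.13, 0.27 and -0.061 with vitamin E. Markers of pericytes and smooth muscle, where the COL4A5 and COL4A6 network is known in mammals, had 0 of 9 genes at an unadjusted p under 0.05 (limma). Their sums overlapped, at 193 to 350 FPKM in controls and 185 to 273 FPKM with vitamin E. Of these sums CNN1 averaged 58.4 ± 71.3 and 12.3 ± 2.07 FPKM (SD, n = 3), with a highest value of 141 FPKM. Relative to their mean the pericyte and smooth muscle markers stood at 0.36, -0.23 and 0.068 in controls and at 0.037, 0.13 and -0.36 with vitamin E. The part of either cell type in the chain values was not tested.

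Of 5 Schwann cell markers present 4 averaged under 1 FPKM, among them SOX10, S100B and ERBB3, and 1 reached the level for testing. Adipocyte markers summed to 142 to 226 and 242 to 375 FPKM, without overlap, with FABP4 alone averaging 114 and 214 FPKM of these sums. The groups overlapped in each of the 6 adipocyte markers, and CIDEC was under 1 FPKM. Of 5 tested ones 1, FABP4, was higher at an unadjusted p under 0.05 (limma), beside 5.97% of all tested genes. Leukocyte markers summed to 426 to 836 and 584 to 760 FPKM, with CD74 alone averaging 587 and 615 FPKM of these sums. Of 6 tested leukocyte markers 0 passed an unadjusted p under 0.05 (limma), and their median log2 difference was 0.16. Only CD4 was without overlap (higher), beside 8.86% of all tested genes. Satellite cell markers summed to 36.2 to 46.7 and 32.4 to 57.7 FPKM, with CALCR under 1 FPKM. Of 4 tested satellite cell genes 2 were lower at an unadjusted p under 0.05 (limma), PAX7 (-0.51 ± 0.17, SE) and HEYL (-0.73 ± 0.22). Of all 11320 tested genes 355 were lower at that p, and 9.11% passed it in either direction. MYF5 went the other way at 0.58 ± 0.31, and CDH15 was at -0.21 ± 0.19, both with overlap. In none of the lists summed here was a marker at 0 in all libraries, and the part of these cells in the chain values was not tested.

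**Figure D5:**
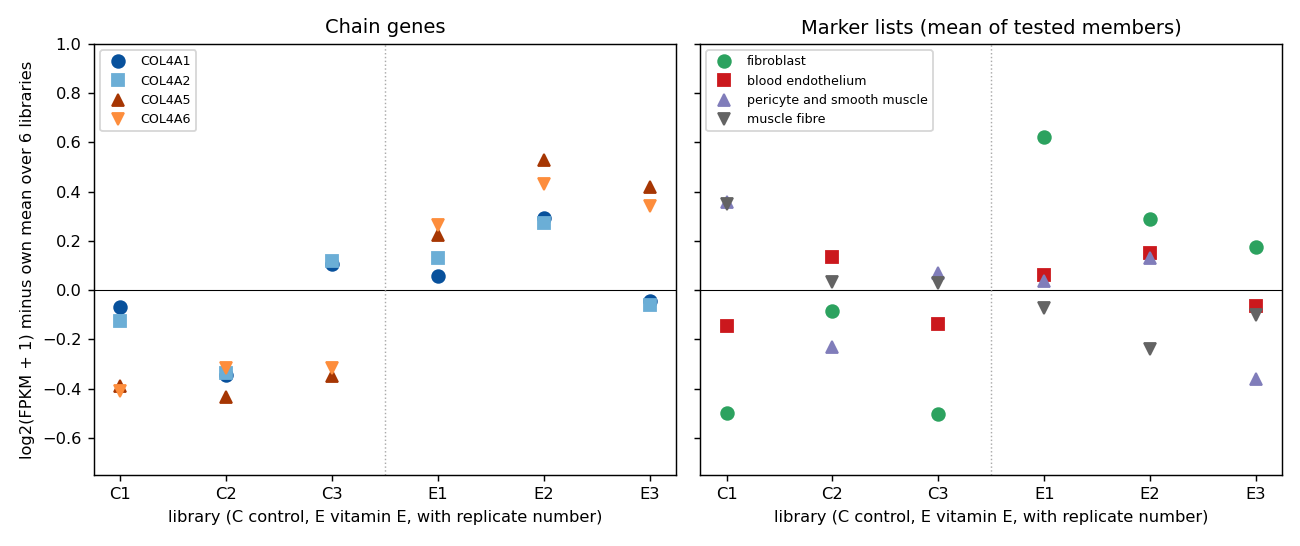
Log2(FPKM + 1) in each library minus the mean over the 6 libraries, for the 4 tested chains (left) and for marker lists as the mean of their tested members (right). C1 to C3 are control and E1 to E3 vitamin E libraries. COL4A1 and COL4A2 stay close to each other and dip to -0.35 and -0.34 in C2, COL4A5 and COL4A6 are negative in all controls and positive in all vitamin E libraries, and so are fibroblast markers, which peak at 0.62 in E1.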

How the data were processed

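RNA from 3 control and 3 vitamin E pectoral muscle samples was compared; groups come from the source names and replicate numbers from the titles. The authors deposited FPKM per gene, 1 column per library. TopHat2 2.0.12 is the only tool in the submitters' processing notes, and no source used here gives a counter, annotation, genome build or strand setting. Chromosome names were given to 37 sequence records by the gene symbols they share with a reference table, at least 94.4% of them on 1 chromosome.

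The steps in the FPKM values gave back whole reads, lengths and totals; the length was whole within 0.05 bases for 98.7% of 18883 genes at once and otherwise after scaling. Reads with a common factor may be understated. The 11320 genes averaging 1 FPKM or more entered a two-sided limma test (3.58.1, R 4.3.3) with an intensity trend on log2(FPKM + 1), at a Benjamini-Hochberg adjusted p of 0.05. The method was tested on simulated data. Figures used matplotlib 3.10.9.

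Alternatives were a pseudocount of 0.1, all genes unfiltered, a 5 FPKM minimum, TMM-type and median-of-ratios scaling, voom on recovered reads, a replicate block and leaving out each library. Named genes were all 6 chains, the 4 with the smallest p in each pathway list, PXDN, SERPINH1, ITGB1 and NID1, and the 3 nearest symbols to each tested chain; a few others are named as examples, chosen after their values were seen. The members and lists were chosen with earlier results of these data known. Arrangement on the chromosome and flanking genes were added after seeing the data. Single values of a few listed genes, and the sum of the Schwann cell list, are not reported here.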

Additional observations from a re-analysis of the deposited data

How the results depend on the processing

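Over 13 alternatives COL4A1 ranged from 0.083 to 0.31 and COL4A2 from 0.12 to 0.34 on the log2 scale, lowest without control replicate 2 for both. COL4A5 ranged from 0.71 to 0.87 and COL4A6 from 0.65 to 0.73 over fits without 1 library. COL4A5 moved to 0.95 and COL4A6 to 0.82 with a pseudocount of 0.1, and to 0.98 and 0.84 with voom on recovered reads. With a minimum of 5 FPKM neither gene was tested, so the chains at an unadjusted p under 0.05 went from 2 to 0, and no other alternative changed that count. Genes called over all went from 0 to 2 with that minimum and to 2 with voom, none of them a chain. The log2 ratio of COL4A1 to COL4A5 moved from -0.77 to -0.58 on FPKM + 1, and over fits without 1 library it ranged from -0.86 to -0.68. The higher genes at an unadjusted p under 0.05 numbered 676, and 441 to 942 over fits without 1 library: leaving out vitamin E replicate 2 gave 441, and leaving out control replicate 3 gave 442. The lower genes numbered 355, and 614 without control replicate 2. With the 5 FPKM minimum they were 443 and 236, and with no filter 980 and 549. With the replicate block the log2 differences are the same by construction and 0 genes were called, as without it. Same-numbered libraries correlated at -0.13, 0.15 and 0.012 in their deviations from the group means, so the numbers were not taken to pair them. Medians of the receptor, protease and TGF-beta lists turned above 0 without some single libraries, up to 0.083, 0.082 and 0.025. COL4A3 and COL4A4 are limited by 8 to 31 reads per library.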
